A study of Mus musculus with 2 samples.

Results

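Retinoids, the active forms of vitamin A, reach cells as retinol bound to a carrier, are oxidised to retinal and then to retinoic acid, and act through nuclear receptors until cytochromes of the CYP26 family clear them. The 8 genes described here, of 31053 genes counted, cover these steps. Rbp4 encodes the retinol carrier of plasma, Rbp7 a cytosolic retinol-binding protein, Rdh10 the retinol dehydrogenase, Aldh1a1, Aldh1a2 and Aldh1a3 the retinaldehyde dehydrogenases that make retinoic acid, Rarb a retinoic acid receptor, and Cyp26b1 an enzyme that removes retinoic acid. In vessels, retinoic acid is best known for its part in the differentiation of endothelial and smooth muscle cells, and Rbp7 is known as a gene of adipose and heart microvessels. All 8 symbols were found once in both gene lists. The genes were chosen by their levels and by HFD against ND in these same libraries, so those values are given as a description.

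Single-cell RNA-seq with 10x chemistry was performed on the aortic arch of Apoe-/- male C57BL/6 mice aged 16 weeks, fed a chow diet (ND) or a high fat, high cholesterol diet (HFD). For each diet, 2 aortas were pooled into 1 library, so the animals of a library could not be told apart, no difference between diets could be tested, and diet could not be told apart from the pool, the dissection or the library. The Apoe deletion was carried by both groups, and Apoe transcripts were still counted (1257 UMIs in ND and 844 in HFD cells). Where these reads lie in the gene was not tested, so the counts say nothing of the allele.

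After filtering, 5416 ND and 2739 HFD cells remained, with a median of 3732 and 5336 UMIs per cell, and 1 barcode was shared by both libraries. A cell was put in a class when it held a UMI of at least 3 markers of that class and of no other class; 6532 of 8155 cells were placed in this way. The largest classes were endothelial cells (2193 ND, 1031 HFD), fibroblasts (928 and 401) and macrophages (331 and 480). Their own markers summed to 6229, 20304 and 11225 counts scaled to 1000000 UMIs (CPM) in the ND class, against 1221, 758 and 197 CPM in all other ND cells. The libraries differed in makeup. B cells (473 ND, 6 HFD), T cells (218 and 18) and club cells of the airway lining (62 and 0) were mostly or wholly in ND, and erythroid cells were mostly in HFD (6 and 39). Levels below are CPM, the UMIs of a gene over all UMIs of the cells described, and each bracketed interval is an exact 95% interval that covers counting error only.

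Upstream sequence of the genes on which the values turned is shown first, since retinoic acid acts at direct repeats of a short half-site. Of the 8 genes, 6 had a RefSeq promoter window on GRCm38.p6, and the 250 bases before each start were searched on both strands for 2 copies of GTTCA or GGTCA in a row, in any of their 4 combinations, spaced as direct repeats with 5, 2 or 1 bases between full half-sites. In Rarb, whose induction by retinoic acid is a textbook case, the letters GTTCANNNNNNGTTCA were found. These letters were held by 22 of 32851 windows (0.0670%), and none of the other repeats was found in a member. The full Rarb half-sites lay 37 to 53 bases before a start inside the gene span (chr14:16430839-16819156), not before its outer start. Which transcript gave the Rarb UMIs was not tested. Of all windows, 0.210% held a repeat with spacing 5, 0.292% one with spacing 2 and 0.317% one with spacing 1. The 30 bases around it (chr14:16575506-16575535, minus strand) are printed with the half-sites GGTTCA and AGTTCA and the bases between them in capitals. For Cyp26b1 (chr6:84593909-84594060, minus strand) the letters TATAAA are in capitals, which stood in 4063 windows (12.4%), and in Rbp7 (chr4:149454979-149455218, minus strand) no searched letters were found. Both runs were trimmed to bases outside annotated transcripts.
Rarb: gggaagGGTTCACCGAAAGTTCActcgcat
Cyp26b1: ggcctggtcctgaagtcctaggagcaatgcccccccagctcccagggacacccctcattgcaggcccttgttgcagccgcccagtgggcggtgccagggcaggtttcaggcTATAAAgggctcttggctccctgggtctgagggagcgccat
Rbp7: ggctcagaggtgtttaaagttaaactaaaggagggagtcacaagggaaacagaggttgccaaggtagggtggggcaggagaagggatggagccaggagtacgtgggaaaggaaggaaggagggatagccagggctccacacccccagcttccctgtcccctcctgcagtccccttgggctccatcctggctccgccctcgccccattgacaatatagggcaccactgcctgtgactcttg

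The 8 genes were spread over different cells, and the classes present in both libraries showed nearly the same arrangement. Rbp7 was a gene of endothelial cells, Rbp4 of fibroblasts and adipocytes, Aldh1a3 of fibroblasts, Aldh1a2 of mesothelial cells and Cyp26b1 of endothelial cells and fibroblasts. Aldh1a1 was highest in club cells and was also high in mesothelial cells, Schwann cells and fibroblasts. Rdh10 was low in most classes and Rarb was near the limit of counting, with 121 UMIs in all ND and 32 in all HFD cells.

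**Figure D1:**
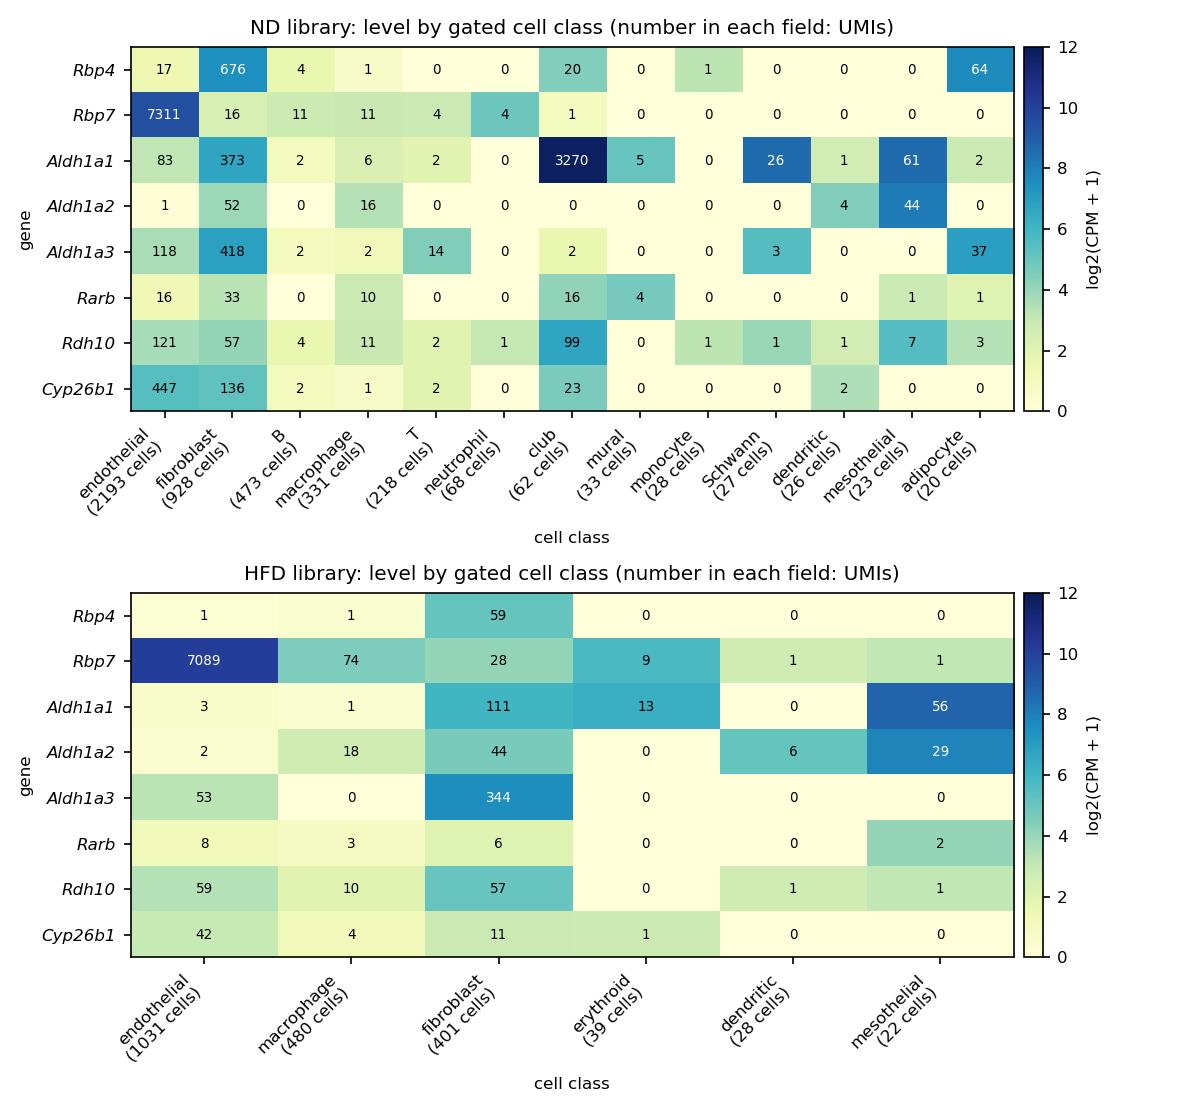
Level of the 8 genes (rows) in each cell class with at least 20 cells (columns, with the number of cells), in the ND (top) and the HFD library (bottom). Colour shows log2(CPM + 1) and the number in each field is the UMI count; Rbp7 stands out in endothelial cells (7311 and 7089 UMIs) and Aldh1a1 in ND club cells (3270 UMIs).

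Rbp7 (ENSMUSG00000028996, chr4:149449687-149454978) was counted at 713 CPM (697 to 729) in ND and at 1146 CPM (1119 to 1173) in HFD endothelial cells, a log2 difference of 0.68 (0.64 to 0.73), or 1.61-fold. Endothelial cells held 83.0% of its UMIs in ND and 71.5% in HFD, while they were 40.5% and 37.6% of cells. At least 1 UMI was found in 52.3% of ND endothelial cells (median 3481 UMIs) and in 1.90% of ND B cells (5.81 CPM), which had a like depth (median 3470). In HFD, 83.2% of endothelial cells (median 5239) and 8.54% of macrophages (median 5770) held one. Thinned to 1000 UMIs per cell, which left out 5 ND cells and 0 HFD cells, the endothelial share was 33.2% (31.3 to 35.2) in ND and 56.5% (53.4 to 59.5) in HFD.

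The low Rbp7 counts of other classes were set beside those of another endothelial transcript. For each 100 UMIs of Fabp4, the fatty acid carrier of capillary endothelium, there were 2.88 of Rbp7 in ND and 3.55 in HFD endothelial cells. The same ratio was 2.67 in ND macrophages, 2.61 in ND B cells, 1.61 in ND fibroblasts, 3.13 in HFD macrophages and 2.60 in HFD fibroblasts. Other classes lay further off. The ratio was 6.90 in ND neutrophils (4 Rbp7 UMIs), and 0 Rbp7 UMIs stood beside 642 of Fabp4 in ND mural cells and 4180 in ND adipocytes. Rbp7 was at 22.3 CPM in HFD and 6.67 CPM in ND macrophages, and at 15.5 and 4.35 CPM in fibroblasts; whether this was free RNA or expression in those cells was not tested. Fabp4 itself was also higher in them, at 713 against 250 CPM in macrophages and 595 against 270 CPM in fibroblasts, and it reached 981 CPM in HFD foam macrophages, where 45 Rbp7 UMIs stood beside 32 of Gpihbp1. In HFD endothelial cells Gpihbp1 had more UMIs than Rbp7 (12946 and 7089).

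Within the endothelium, Rbp7 followed the microvessels. Endothelial cells were divided by at least 2 UMIs, summed over a list, of luminal genes (Vwf, Vcam1, Cytl1), capillary genes (Gpihbp1, Cd36, Rgcc, Car4) and arteriolar genes (Stc1, Hey1, Sema3g), none of them a retinoid gene. Luminal cells had 3 Rbp7 UMIs in 192 ND cells (2.16 CPM) and 9 in 79 HFD cells (13.0 CPM). Capillary cells without arteriolar genes were at 581 CPM (561 to 602) in ND and 983 CPM (948 to 1018) in HFD. Capillary cells with arteriolar genes were higher still, at 1369 CPM (1326 to 1413) and 1873 CPM (1815 to 1933). The order luminal, capillary, arteriolar was the same under both diets.

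Each arteriolar gene gave the same order on its own. Capillary cells with at least 2 UMIs of Stc1, a secreted glycoprotein, held 1834 CPM of Rbp7 in ND and 2785 CPM in HFD, and those with none held 693 and 1203 CPM. For Hey1, a Notch target, the values were 1653 against 674 CPM in ND and 1810 against 1130 CPM in HFD. For Sema3g, an arterial semaphorin, they were 1389 against 606 CPM and 1926 against 1013 CPM. Deeper cells are more likely to show 2 UMIs of a marker, and these levels are scaled by depth.

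The HFD level was higher in both capillary groups, by log2 0.76 (0.69 to 0.83) without and 0.45 (0.39 to 0.52) with arteriolar genes. It was not higher in cells that held both luminal and capillary genes, which were at 566 CPM in ND and 458 CPM in HFD (84 and 40 cells). The share of capillary cells with arteriolar genes was 22.0% of ND and 31.1% of HFD endothelial cells. With the HFD subgroups weighted as in ND, the HFD level was 1065 CPM and the difference 1.49-fold.

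The spread over single capillary cells differed as well. Among capillary cells with at least 3000 UMIs, 322 of 1032 ND cells had no Rbp7 UMI (31.2%, 28.4 to 34.1), against 74 of 877 HFD cells (8.44%, 6.68 to 10.5), at median depths of 5040 and 5219 UMIs. The median cell was at 345 CPM in ND and 1042 CPM in HFD, the upper quartile at 1094 and 1861 CPM, and the 90th percentile at 2467 and 2987 CPM. As a ratio, the libraries lay closer at the 90th percentile than at the median.

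**Figure D2:**
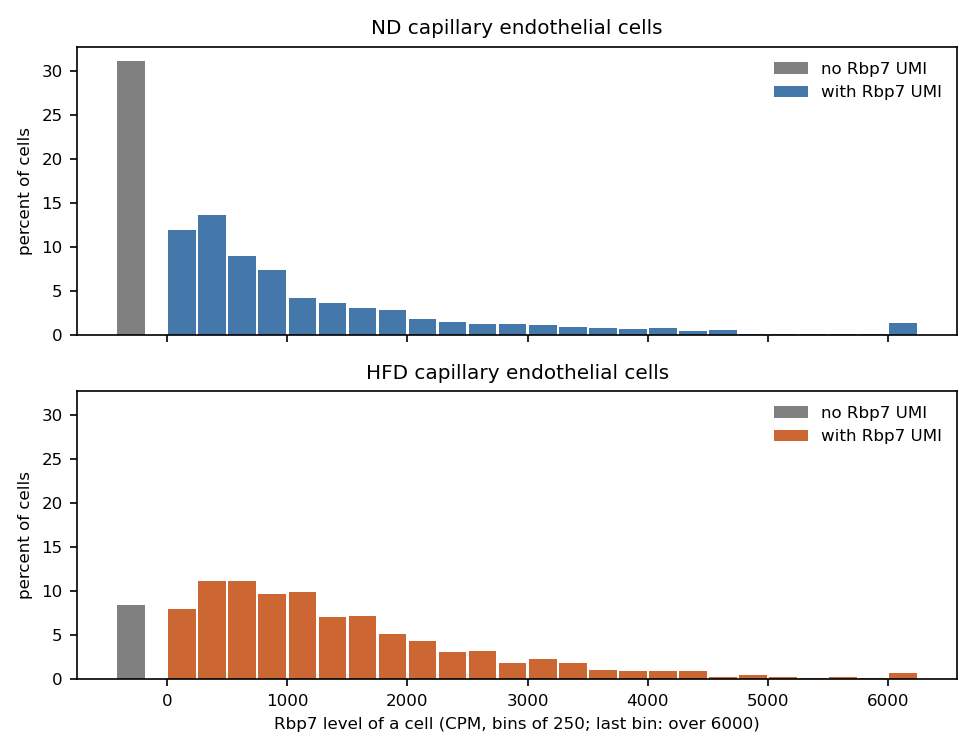
Rbp7 level of single capillary endothelial cells with at least 3000 UMIs (1032 ND, 877 HFD), as the percent of cells in bins of 250 CPM, with cells that lack the transcript as a grey bar at the left. The grey bar stands at 31.2% in ND and 8.44% in HFD.

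Cells with 3 or more Rbp7 UMIs (473 ND, 646 HFD) were set against those with none (322 and 74). Of 4809 genes with at least 100 UMIs in each library, 8 were at least 2-fold higher in both libraries (on CPM + 10), namely Rbp7 itself, Cyp1a1, Fbln5, Hey1, Igfbp3, Sema3g, Stc1 and Stmn2. Cyp1a1, the cytochrome induced through the aryl hydrocarbon receptor, was at 84.5 against 6.03 CPM in ND and at 50.7 against 19.2 CPM in HFD, where the cells without Rbp7 held 7 Cyp1a1 UMIs. The HFD values without Rbp7 rest on as few as 4 UMIs for Igfbp3 and Stc1 and 2 for Stmn2. The 8 genes that were lower in both were Cd74, H2-Aa, H2-Ab1 and H2-Eb1 of antigen presentation, Lyz2 of myeloid cells, and the haemoglobin genes Hba-a1, Hbb-bs and Hbb-bt. Lyz2 reached 1381 CPM in the HFD cells without Rbp7 and 56.9 CPM in those with it, so some of these 74 cells carried myeloid RNA; its part in the result was not tested. These genes were chosen after their values were seen.

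Capillary cells were also divided by Cxcl9, a chemokine induced by interferon gamma. In ND, 588 capillary cells had at least 2 Cxcl9 UMIs and held 565 CPM of Rbp7 (541 to 589), and 906 cells with none held 1267 CPM (1227 to 1308). In HFD only 59 capillary cells had at least 2 Cxcl9 UMIs, at 1025 CPM (935 to 1122), and 709 cells with none were at 1433 CPM (1395 to 1471). Rbp7 was thus lower where Cxcl9 was counted under both diets, and the levels of the 2 libraries lay closer in the cells without Cxcl9 than in those with it; this difference was not tested. Thinned to 1000 UMIs, 43.5% of the ND and 64.5% of the HFD cells without Cxcl9 held a Rbp7 UMI.

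Cyp26b1 (ENSMUSG00000063415, chr6:84571414-84593908) was counted in endothelial cells and fibroblasts of ND and was low in HFD. Its endothelial level was 43.6 CPM (39.6 to 47.8, 447 UMIs in 249 cells) in ND and 6.79 CPM (4.89 to 9.18, 42 UMIs in 34 cells) in HFD, a log2 difference of -2.68 (-3.17 to -2.22), or 6.42-fold. In fibroblasts it was 37.0 CPM (136 UMIs in 67 cells) and 6.07 CPM (11 UMIs in 6 cells), a log2 difference of -2.61 (-3.64 to -1.72). Macrophages held 1 UMI in ND and 4 in HFD, B cells 2 UMIs in ND, and club cells 23 UMIs in ND, 16 of them in 1 barcode. Whether these were free RNA was not tested. At 1000 UMIs per cell, 3.66% of ND and 0.582% of HFD endothelial cells held a UMI.

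Of 8 genes, 6 had at least 20 UMIs in endothelial cells of both libraries together, and 2 of these, Cyp26b1 and Aldh1a1, were at least 2-fold lower in HFD, as were 6.27% of 12059 genes with that many UMIs. None of the 6 was at least 2-fold higher, against 2.74% of genes. The median log2 difference of those 12059 genes was -0.11. Ranked by log2 difference, Cyp26b1 had 60 of these genes below it and Aldh1a1 had 29, on 83 ND and 3 HFD UMIs. The 8 genes were chosen partly by this same difference, so the counts and ranks only describe them.

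Unlike Rbp7, Cyp26b1 was counted in luminal as well as capillary cells, and it was lower in HFD in each of the 4 subgroups. Luminal cells were at 51.8 CPM (40.5 to 65.2, 72 UMIs) in ND and 2.88 CPM (0.349 to 10.4, 2 UMIs) in HFD. Capillary cells were at 41.9 CPM in ND and 7.70 CPM in HFD, and capillary cells with arteriolar genes at 33.7 and 4.35 CPM. Cells with both luminal and capillary genes were highest, at 92.9 CPM (69.6 to 121) in ND and 22.9 CPM (9.21 to 47.2) in HFD, where 4 of 7 UMIs were in 1 barcode (10.2 CPM without it). At the ND mix of subgroups the HFD level was 6.98 CPM, close to its own 6.79 CPM. Cells that carried both endothelial and mural markers gave like values, at 42.8 CPM (67 cells; 24.7 CPM without 1 barcode) and 6.32 CPM (85 cells). Endothelial cells with a Rbp7 UMI held 34.1 CPM of Cyp26b1 in ND and those without held 55.8 CPM, and in HFD the 2 values were 6.62 and 7.49 CPM with overlapping intervals.

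**Figure D3:**
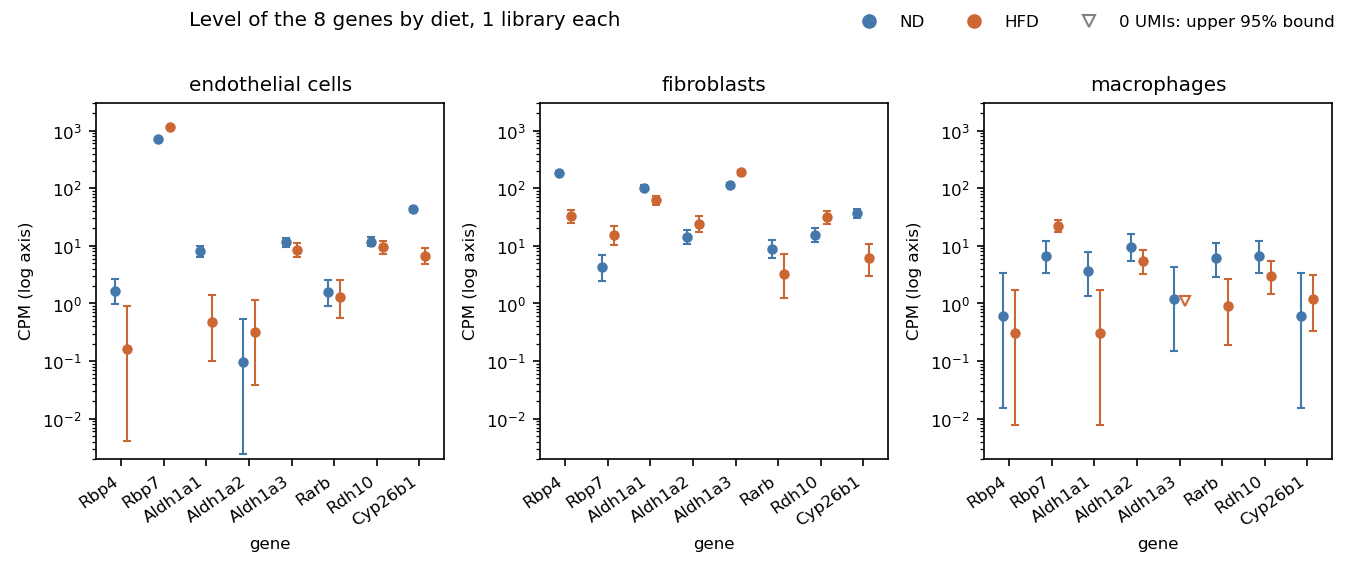
Level (CPM, log axis) of the 8 genes in endothelial cells, fibroblasts and macrophages of the ND and HFD libraries. Points are sums over the cells of 1 library with exact 95% Poisson intervals, and an open triangle is the upper bound where no UMI was counted; Cyp26b1 lies apart between diets in endothelial cells (43.6 and 6.79 CPM) and in fibroblasts (37.0 and 6.07 CPM).

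Rbp4 (ENSMUSG00000024990, chr19:38116629-38125281) was a gene of fibroblasts and fat cells. Fibroblasts held 64.3% of its UMIs in ND and 62.8% in HFD. The fibroblast level was 184 CPM (170 to 198, 676 UMIs in 222 cells) in ND and 32.6 CPM (24.8 to 42.0, 59 UMIs in 31 cells) in HFD, a log2 difference of -2.50 (-2.91 to -2.11), or 5.65-fold. In adipocytes it was 203 CPM (157 to 260, 18 of 20 cells) in ND and 248 CPM (159 to 369, 5 of 8 cells) in HFD, with overlapping intervals; 1 HFD barcode held 11 of 24 UMIs, and without it the level was 151 CPM. Endothelial cells were at 1.66 and 0.162 CPM, macrophages held 1 UMI in each library and mesothelial cells held 0 UMIs in each.

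The fibroblast level of Rbp4 depended on the kind of fibroblast. Fmod, Wisp2 and Mfap4 are genes of fibrous matrix and of the Wnt pathway. Fibroblasts with at least 2 UMIs summed over these genes held 423 CPM (390 to 459) in ND and 118 CPM (77.2 to 173) in HFD. Among the others, those that passed the same rule for Inmt and Gdf10 held 63.5 and 29.5 CPM. The remaining ones that passed it for Pi16, Dpp4 and Sema3c, genes of adventitial fibroblasts, held 16.4 and 9.86 CPM with overlapping intervals. The Fmod group was 42.7% of ND fibroblasts (396 cells) and 13.0% of HFD fibroblasts (52 cells), and the Pi16 group was 30.7% and 55.9%. At the ND mix of these groups the HFD level was 60.3 CPM, and the difference was 3.05-fold in place of 5.65-fold. Within the Fmod group, 44.2% of ND and 15.4% of HFD fibroblasts held a UMI, and without the barcode that held most Rbp4 UMIs the HFD value there was 73.8 CPM.

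Aldh1a3 (ENSMUSG00000015134, chr7:66390890-66427517) was instead highest in the Pi16 group of fibroblasts under both diets. Its level was 114 CPM (103 to 125, 418 UMIs in 181 cells) in ND and 190 CPM (170 to 211, 344 UMIs in 134 cells) in HFD fibroblasts, a log2 difference of 0.74 (0.53 to 0.95). The Pi16 group held 233 CPM (208 to 261) in ND and 274 CPM (245 to 307) in HFD, a log2 difference of 0.23 (0.00 to 0.47). In the Fmod group the gene had 40 UMIs in 396 ND cells (28.1 CPM, 20.1 to 38.3) and 22 UMIs in 52 HFD cells (62.6 to 151 CPM), a log2 difference of 1.83 (1.01 to 2.61). The level was not higher in HFD elsewhere. The Inmt group was at 60.3 CPM in ND and 49.2 CPM in HFD, a log2 difference of -0.29 (-1.26 to 0.61). Fibroblasts in none of these groups were at 91.7 and 5.83 CPM, but 23 of their 27 ND UMIs were in 1 barcode (13.6 CPM without it). At the ND mix of groups the HFD level was 148 CPM, or 1.30-fold the ND level. Thinned to 1000 UMIs, 7.39% of ND and 14.7% of HFD fibroblasts held a UMI, and 35 ND fibroblasts were left out. Macrophages held 2 UMIs in ND and 0 in HFD, and 0 of 480 HFD macrophages has an exact upper bound of 0.766% for cells with a UMI, which is not a limit on cells expressing the gene.

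**Figure D4:**
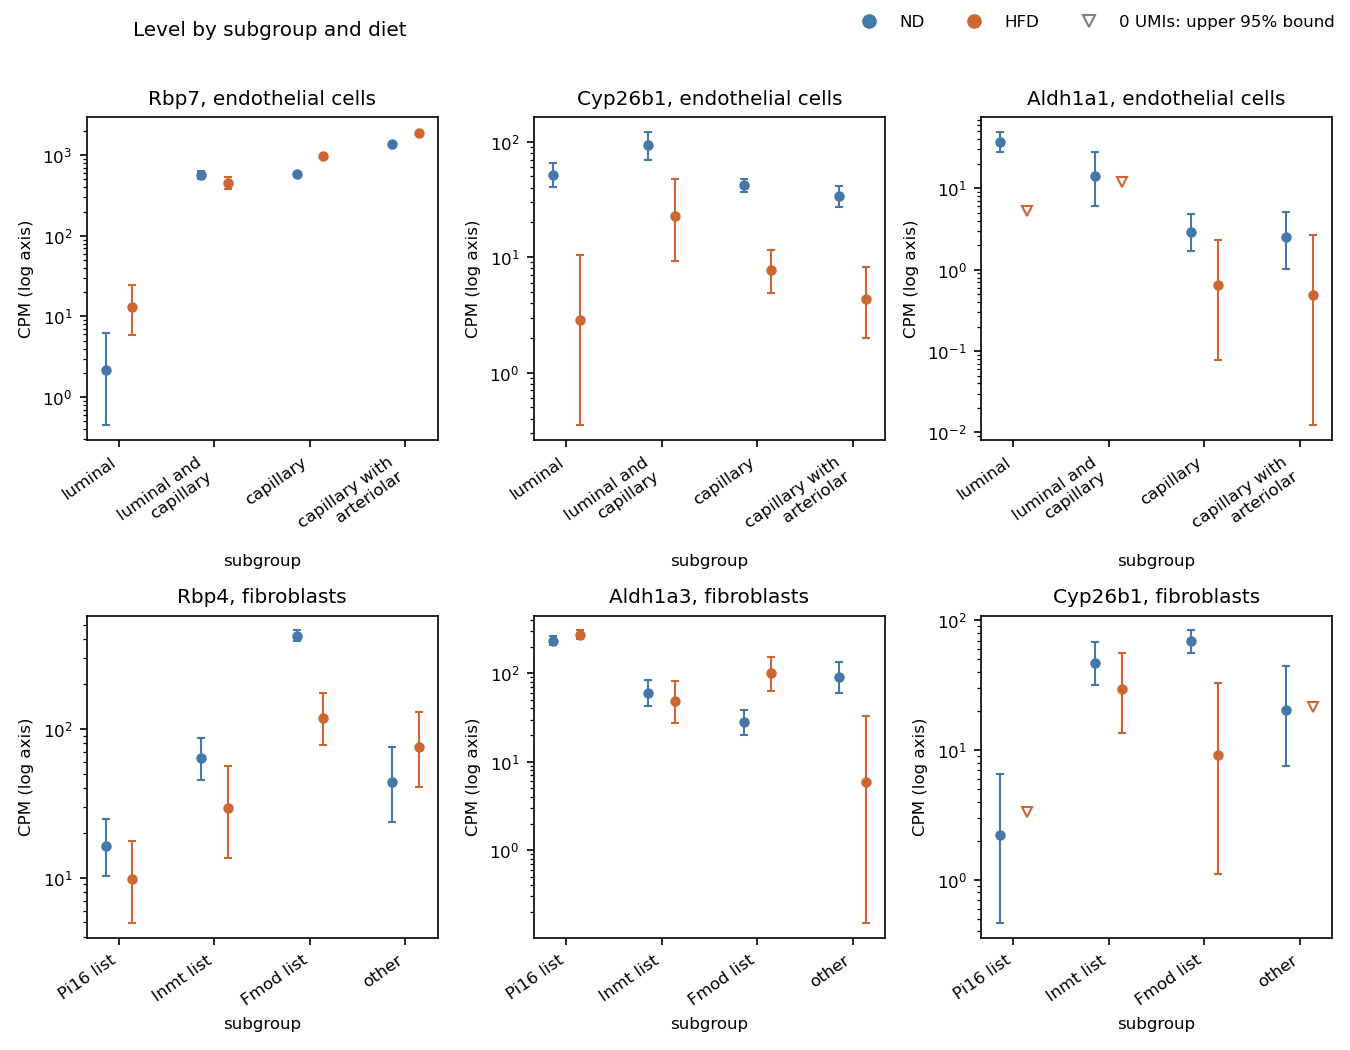
Level (CPM, log axis) by subgroup and diet, for Rbp7, Cyp26b1 and Aldh1a1 in endothelial cells (top) and for Rbp4, Aldh1a3 and Cyp26b1 in fibroblasts (bottom). Points are sums over the cells of 1 library with exact 95% Poisson intervals and open triangles are upper bounds at 0 UMIs; Rbp4 peaks in the Fmod group and Aldh1a3 in the Pi16 group, and endothelial Cyp26b1 is lower in HFD in each subgroup shown.

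Rbp4 and Aldh1a3 were seldom found in the same fibroblast. In ND, 11 fibroblasts held UMIs of both, where the product of their shares gives 43.3, and in HFD 5 did against 10.4. Fibroblasts with an Aldh1a3 UMI held 36.2 CPM of Rbp4 (25.2 to 50.4) and those without held 237 CPM (219 to 256) in ND, although the former were deeper (medians 5109 and 3489 UMIs). In ND, Cyp26b1 went with Rbp4. There 31 fibroblasts held both against a product of 16.0, and Cyp26b1 was at 89.8 CPM with and 23.1 CPM without a Rbp4 UMI. In HFD 1 fibroblast held both against a product of 0.464. Cyp26b1 was at 23.7 CPM (4.88 to 69.2) with and 4.75 CPM (2.05 to 9.36) without a Rbp4 UMI there, with overlapping intervals. In the Fmod group Cyp26b1 was at 68.9 CPM in ND (98 UMIs) and 9.09 CPM in HFD (2 UMIs). In the Pi16 group it was at 2.23 CPM in ND (3 UMIs) and 0 in HFD. The Inmt group was at 47.2 CPM in ND (29 UMIs) and 29.5 CPM in HFD (9 UMIs), a log2 difference of -0.68 (-1.94 to 0.44). At the ND mix of groups the HFD fibroblast level of Cyp26b1 was 8.45 CPM, or 4.38-fold below ND. Cyp26b1, which removes retinoic acid, and Aldh1a3, which makes it, were counted together in 2 ND fibroblasts against a product of 13.1, and in 0 HFD fibroblasts.

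Endothelial Aldh1a3 rested on few cells. It was 11.5 CPM in ND and 8.57 CPM in HFD, with overlapping intervals, but its 118 ND UMIs came from 40 of 2193 cells, and 1 barcode held 25 of them. In HFD, 1 of 23 such cells held 18 of 53 UMIs, and without it the level was 5.66 CPM. This barcode lay among the 40 HFD cells with luminal and capillary genes, which were at 62.2 CPM with and 3.31 CPM without it, and the ND barcode among the luminal cells, at 25.2 and 7.29 CPM. In ND adipocytes all 37 UMIs were in 1 of 20 cells, so the level of 118 CPM is that of a single barcode, and in ND T cells 13 of 14 UMIs were in 1 barcode.

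Aldh1a1 (ENSMUSG00000053279, chr19:20492715-20643465) was highest outside the vessel wall. Club cells, present in ND alone, were at 3383 CPM (3268 to 3501) and held 62.5% of the ND UMIs in 1.14% of the cells. Over all cells the gene was 12.1-fold lower in HFD, whereas in fibroblasts it was at 101 CPM (91.4 to 112) in ND and 61.3 CPM (50.4 to 73.8) in HFD, or 1.66-fold. Mesothelial cells did not differ beyond counting error, at 388 CPM (297 to 498, 23 cells) and 438 CPM (331 to 568, 22 cells). Schwann cells of ND were at 385 CPM (252 to 565, 26 UMIs in 9 of 27 cells). In HFD, 13 of 39 erythroid cells held 1 UMI each, and at 1000 UMIs per cell 2.56% of them did. Aldh1a7, a near-identical copy, could share reads with Aldh1a1, and was counted at 150 CPM in club cells and 79.4 CPM in ND adipocytes.

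Scgb1a1, the secretoglobin that marks club cells, was also counted in other ND classes, and whether this was free RNA was not tested. Club cells held 1.56 Aldh1a1 UMIs for each 100 of Scgb1a1. The same ratio was 1.56 in T cells (2 Aldh1a1 UMIs), 0.862 in B cells (2 UMIs), 2.64 in macrophages (6 UMIs) and 1.93 in capillary endothelial cells of ND. It was 90.3 in ND fibroblasts, 407 in ND mesothelial cells and 41.9 in ND luminal endothelial cells, whose Scgb1a1 level (89.2 CPM) was below that of capillary cells (152 CPM). Luminal endothelial cells of ND held 52 Aldh1a1 UMIs (37.4 CPM, 27.9 to 49.0) in 18 of 192 cells, of which 24 were in 1 barcode, and without that barcode the level was 20.3 CPM. Luminal cells of HFD held 0 UMIs in 79 cells, with an exact upper bound of 5.31 CPM. In all endothelial cells it was 8.09 CPM in ND and 0.485 CPM in HFD (3 UMIs), a log2 difference of -4.06 (-6.37 to -2.46).

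Among fibroblasts Aldh1a1 was highest in the Fmod group (173 CPM in ND, 109 CPM in HFD) and lower in the Pi16 group, where the HFD level was not lower (38.7 and 50.2 CPM, with overlapping intervals). At the ND mix of groups the HFD level was 76.6 CPM, or 1.33-fold below ND. ND fibroblasts with an Aldh1a1 UMI held 279 CPM of Rbp4 (248 to 312) and those without 145 CPM (131 to 161), and in HFD the values were 77.2 and 19.9 CPM. Aldh1a3 was at 111 and 115 CPM in ND fibroblasts with and without Aldh1a1, with overlapping intervals, and at 249 CPM (203 to 303) and 173 CPM (152 to 196) in HFD fibroblasts.

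Aldh1a2 (ENSMUSG00000013584, chr9:71215789-71296243), known as the enzyme of mesothelium and of embryonic retinoic acid synthesis, was highest in mesothelial cells. It was at 280 CPM (203 to 376, 44 UMIs) in ND and 227 CPM (152 to 325, 29 UMIs) in HFD, which did not differ beyond counting error. Mesothelial cells were 0.425% of ND and 0.803% of HFD cells and held 29.1% and 25.7% of its UMIs. Of 23 ND mesothelial cells 12 held both Aldh1a1 and Aldh1a2, and of 22 HFD cells 10 did, close to the products of their shares (12.6 and 8.91). Fibroblasts were at 14.1 CPM (52 UMIs) in ND and 24.3 CPM (44 UMIs) in HFD, a log2 difference of 0.78 (0.17 to 1.39). Of the HFD UMIs 10 came from 1 barcode, and without it the level was 18.9 CPM. It lay in the Pi16 group, which was at 20.6 CPM with and 11.7 CPM without it, against 8.18 CPM in ND. Dendritic cells held 4 UMIs in 4 of 26 ND cells and 6 UMIs in 1 of 28 HFD cells. Macrophages were at 9.70 and 5.43 CPM, with overlapping intervals, and endothelial cells held 1 and 2 UMIs.

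Rdh10 (ENSMUSG00000025921, chr1:16105774-16133734), which makes the retinal that the Aldh1a enzymes use, was counted at 102 CPM (83.3 to 125) in ND club cells. There 32 of 62 cells held it, all of them with Aldh1a1, where the product of shares gives 24.8. Club cells with Aldh1a1 were far deeper than those without (medians 18125 and 2816 UMIs). In fibroblasts Rdh10 was 15.5 CPM (11.7 to 20.1, 57 UMIs in 52 cells) in ND and 31.5 CPM (23.8 to 40.8, 57 UMIs in 34 cells) in HFD. This was a log2 difference of 1.02 (0.47 to 1.58), and at the ND mix of groups the HFD level was 24.4 CPM. In endothelial cells Rdh10 was 11.8 and 9.54 CPM, and in mesothelial cells 7 UMIs in ND and 1 in HFD. More ND fibroblasts held both Aldh1a3 and Rdh10 (20) than the product of their shares (10.1), and in HFD 17 did against 11.4. Cells with Aldh1a3 were deeper, however, and scaled by depth Rdh10 was at 23.8 CPM (15.1 to 35.7) with and 12.5 CPM (8.69 to 17.5) without Aldh1a3 in ND, and at 32.4 and 30.9 CPM in HFD, with overlapping intervals under both diets.

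In fibroblasts all 8 genes had at least 20 UMIs. At least 2-fold lower in HFD were 3 of 8 (Rbp4, Rarb and Cyp26b1), as were 8.07% of 10706 genes, and at least 2-fold higher were 2 of 8 (Rdh10 and Rbp7), as were 1.95% of genes. Rdh10 was just past 2-fold, and fell short of it with log2 0.52 without the mitochondrial limit, 0.65 at the ND mix, 0.82 with barcodes of several gates kept, 0.91 with 1 marker more and 0.88 without the barcode with most UMIs. In macrophages 3 genes had that many UMIs, with Rdh10 lower (11 and 10 UMIs, log2 -1.14, -2.54 to 0.23), as were 7.44% of 9322 genes, and Rbp7 higher, as were 4.39%. The median log2 difference of all these genes was -0.17 in fibroblasts and -0.11 in macrophages.

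Rarb (ENSMUSG00000017491, chr14:16430839-16819156) was detected in few cells of any class. Its level was 8.98 CPM (6.18 to 12.6, 33 UMIs) in ND and 3.31 CPM (1.22 to 7.21, 6 UMIs) in HFD fibroblasts, a log2 difference of -1.44 (-2.98 to -0.17). In endothelial cells it was 1.56 and 1.29 CPM, with 16 and 8 UMIs. Mural cells held 4 UMIs in 33 ND cells and 3 in 12 HFD cells, club cells 16 UMIs in 62 cells and lymphatic endothelial cells 4 UMIs in 18 ND cells. Macrophages held 10 UMIs in ND (6.06 CPM) and 3 in HFD (0.905 CPM), of which 8 in ND were in the resident group marked by Lyve1, Folr2 and Cd163.

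Barcodes that passed the gates of several classes were left out above. They numbered 598 in ND and 465 in HFD and held 24.7% of the ND UMIs of Rbp4, 22.6% of those of Aldh1a1 and 20.3% of the HFD UMIs of Rbp7. Their Cyp26b1 level differed between diets as in the gated classes, at 40.8 and 4.85 CPM.

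The rest of the pathway was described with a list of 54 genes, all of which were present in the gene lists. Some, such as Ttr and Cdx1, had 0 UMIs in endothelial cells, fibroblasts and macrophages of both libraries. In endothelial cells 32 of the 54 had at least 20 UMIs. Of these, 3 were at least 2-fold lower in HFD (6.27% of all genes were) and 0 higher (2.74% of all genes), with a median log2 difference of -0.08. The 3 were Rarres1, named for its induction by retinoids (29.2 and 9.38 CPM, log2 -1.64, -2.07 to -1.23), Adh7, an alcohol dehydrogenase that oxidises retinol (43.8 and 20.2 CPM, 1.82-fold lower at the ND mix of subgroups), and Cyp26a1, the close relative of Cyp26b1 (21 and 5 UMIs). The receptors Rara, at 31.2 and 32.8 CPM, and Rarg, at 36.9 and 38.6 CPM, had overlapping values. Scarb1, a lipoprotein receptor that also takes up carotenoids, was at 306 and 174 CPM. Lpl, the lipase that frees fatty acids and retinyl esters from lipoproteins, was higher in HFD at 590 and 1166 CPM, a log2 difference of 0.98 (0.93 to 1.03).

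In fibroblasts 29 of 54 genes had at least 20 UMIs, with 3 lower by 2-fold or more (8.07% of all genes were), 1 higher (1.95% of all genes) and a median of -0.17. Among the lower genes, Dhrs3, the reductase that turns retinal back to retinol and a known target of retinoic acid, was at 81.4 CPM in ND and 32.0 CPM in HFD (log2 -1.35, -1.78 to -0.94). Cyp26a1 had 26 UMIs in ND and 0 in HFD. Weighted to the ND mix of groups, the HFD level of Dhrs3 was 39.5 CPM (2.06-fold lower). Dhrs3 was not lower in the other classes, at 139 and 178 CPM in endothelial cells and 241 and 239 CPM in macrophages. Lpl was the higher gene, at 546 and 1280 CPM. Rarres2, the chemerin gene, was at 697 and 779 CPM.

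In macrophages 26 of 54 genes had at least 20 UMIs, with 2 lower (7.44% of all genes were), 6 higher (4.39% of all genes) and a median of -0.01. Among the higher genes was Fabp5, which carries fatty acids and can bring retinoic acid to the receptor Ppard. It was at 420 CPM in ND and 3452 CPM in HFD (log2 3.04, 2.93 to 3.15). Tgm2, a transglutaminase induced by retinoic acid, was at 38.2 and 147 CPM (log2 1.95, 1.57 to 2.35), and Adh5 at 17.0 and 39.2 CPM. Stra6l (4 and 63 UMIs), Dhrs9 (1 and 30) and Rdh13 (4 and 22) were higher, and Lipe (29.7 and 13.0 CPM) and Bco2 (12 and 11 UMIs, 7.28 and 3.32 CPM) were lower. Foam cells had at least 2 UMIs summed over Gpnmb, Trem2, Spp1 and Mmp12, and fewer than 2 summed over the resident genes. They were 14.8% of ND and 36.9% of HFD macrophages. At the ND mix of macrophage groups, Fabp5 in HFD was at 1393 CPM (3.32-fold higher), and Stra6l and Dhrs9 were also still past 2-fold. Tgm2 (69.3 CPM, 1.81-fold), Adh5 (1.51-fold) and Rdh13 (1.59-fold) were not, and neither were Lipe (1.74-fold lower) and Bco2 (1.67-fold lower).

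Likeness of pattern was measured by Pearson's r of log2(CPM + 10) over 19 points, the classes with at least 20 cells in a library, among 7133 genes with at least 500 UMIs in these cells. The points share 2 libraries and differ in depth, so r is a description. Most like Rbp7 were Gpihbp1, the capillary anchor of lipoprotein lipase (0.973), Sox18 (0.972) and Selp (0.972). Most like Rbp4 were Ltbp2 (0.837), Dram1 (0.826) and Htra3 (0.785), among those most like Aldh1a3 were Serpina3n (0.883) and Ptx3 (0.871), and most like Aldh1a2 were Mpp6 (0.926), Dpp4 (0.890) and Upk3b (0.888), a marker that defined the mesothelial class. For Aldh1a1 they were Fxyd3 (0.855), F3 (0.810) and the keratin Krt19 (0.787). For Cyp26b1 they were Tmem158 (0.844), Car8 (0.759) and Dchs1 (0.729). For the low genes Rdh10 (Sel1l 0.824, Slc35a1 0.795, F3 0.777) and Rarb (Dstn 0.846, Fyco1 0.813, Pdlim3 0.812) the values rest on 436 and 100 UMIs. With a pseudocount of 1 CPM, the 3 genes most like Rdh10 were all others (Pgap2, Spsb1 and Uso1), and 1 of the 3 genes was found again for each of Rbp4 (Ltbp2), Aldh1a1 (Fxyd3) and Rarb (Dstn).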

How the data were processed

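The authors deposited raw UMI counts by gene and barcode in 1 table per diet, made with Cell Ranger (software version 3.0.1 per the file headers) on mm10 per the labels; the counts are not normalized, and the table that joins both libraries was not used. Barcodes passed with no fewer than 200 genes and 200 UMIs if their mitochondrial share did not exceed 30%, which leaves 5416 and 2739 of 10234 and 14225 barcodes, the numbers that the labels state. The median depths that the labels state were not matched by these cells: per the labels ND cells were the deeper, and in the files HFD cells were. Cells were gated by at least 3 markers of a class; lymphatic endothelial cells were kept apart from endothelial, mesothelial cells from fibroblasts and macrophages from monocytes where both gates were passed, and barcodes passing other gates together were left out as possible doublets. Scrublet (scanpy 1.11.5) marked 0 ND and 1 HFD cells at its own threshold and so did not work as a caller; its highest 6% of scores were left out as an alternative.

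UMIs were summed over the cells of a class and divided by all their UMIs. Intervals are exact at 95%: Poisson for levels, Clopper-Pearson for shares and conditional binomial for log2 ratios. With 1 library per diet no test was made. The ratios were checked on simulated data. The upstream bases are RefSeq sequences of GRCm38.p6, and gene positions are from GENCODE M21 on GRCm38. The members and all lists were chosen with earlier results of these data known. Genes named are the 8 members, examples of pathway genes with at least 100 UMIs in the class described, and the 3 genes most like each member with at least 100 UMIs; pathway genes with fewer UMIs that passed 2-fold, and the free-RNA and split genes, were named after their values were seen. Python 3.11.15, numpy 2.4.6, scipy 1.17.1 and pandas 2.3.3 were used. Some results that the rule would name are not reported here.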

Additional observations from a re-analysis of the deposited data

Results flagged for a closer look

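Signal in barcodes left out of the main comparison was seen for Rbp7. The 4668 ND barcodes with over 30% mitochondrial UMIs held 1176 Rbp7 UMIs, and the 11364 such HFD barcodes held 9962, more than the 9912 in the kept HFD cells. Over UMIs that were not mitochondrial, this was 526 CPM in ND and 962 CPM in HFD, against 377 and 710 CPM in the kept cells. Cyp26b1 was at 41.2 CPM in the removed ND and 7.92 CPM in the removed HFD barcodes.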

How the results depend on the processing

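With 1 library per diet, no library could be left out, and the values show these pools only. The higher endothelial Rbp7 level in HFD (log2 0.68) kept its sign in each alternative: 0.58 with at most 20% mitochondrial UMIs, 0.55 without that limit, 0.74 with 1 marker more, 0.79 with barcodes of several gates kept, 0.76 without mitochondrial, haemoglobin and ribosomal protein genes in the scale, 0.61 as a mean over cells, 0.78 by the median of ratios and 0.58 at the ND mix of subgroups. Fibroblast Rbp4 (-2.50) was -3.19 with at most 20% mitochondrial UMIs and -1.61 at the ND mix. Fibroblast Aldh1a3 (0.74) was 1.01 with at most 20%, 0.44 without the limit and 0.38 at the ND mix. Endothelial Cyp26b1 stayed within its counting interval in each alternative run. Signs turned for endothelial Aldh1a3 (0.09 with 1 marker more) and, in capillary cells with arteriolar genes at 1 UMI more, for Aldh1a3 (0.07) and Rdh10 (-0.16). Of the pathway list with at least 40 UMIs in place of 20, 2 of 29 genes were 2-fold lower in endothelial cells, 2 of 25 lower and 1 higher in fibroblasts, and 1 of 21 lower and 4 higher in macrophages. The ND mix and leaving out the highest barcode were chosen after seeing the data. The causes were not tested. No paired analysis was possible because each diet has 1 library.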
